A study of Mus musculus with 14 samples.

Results

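Cplx3, a complexin made by subplate neurons, was followed together with 7 other genes of the subplate and the deep cortical layers in hippocampal RNA of 15-day-old mice. The 8 genes, of 36118 in the table, were Cplx3, Ccn2, Nxph4 and Moxd1 of the subplate, Tle4, Foxp2 and Rprm of layer 6, and Fezf2 of layers 5 and 6. They were picked by name, with earlier results of these data known, and Cplx3 was taken for its lower level in wild-type (WT) mice after hyperoxia. The values of that contrast are therefore a description with no test. All 8 passed the filter on low counts and were among the 16637 genes tested. The mice were homozygous Gsdmd knockout (KO) pups, which lack the pore-forming protein gasdermin D in every tissue through a small deletion in exon 5, or their WT littermates. Both genotypes had a C57BL/6N background and came from matings of heterozygotes. They were kept in room air (RA) or in hyperoxia at 85% O2 from postnatal day 1 to day 14, and the hippocampus was collected on day 15. The groups held 4 mice each in WT (WT-RA and WT-O2) and 3 mice each in KO (KO-RA and KO-O2), with 1 library of polyadenylated RNA per mouse.

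Subplate neurons are among the earliest-born neurons of the cortex. They lie under the cortical plate, receive thalamic input before the overlying layers do, and remain in part as layer 6b of the mature mouse cortex. Layer 6 above them holds corticothalamic neurons, and layer 5 holds neurons that project below the cortex. The hippocampus itself has no layer of this kind, while the adjoining subiculum, entorhinal cortex and neocortex do. Several of the 8 genes are also used elsewhere, Foxp2 in striatal and thalamic neurons among them.

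Each library summed to between 27272270 and 28257496 estimated counts, and values are given as counts per 1000000 (CPM) scaled by edgeR's TMM method. CPM is not corrected for transcript length, so levels were not compared between genes. Gsdmd itself had 41 to 63 counts per library in WT and 22 to 42 in KO, and these sums over transcripts cannot tell a deleted transcript from an intact one. The title of mouse GSD408 gives hyperoxia and its treatment field gives room air. It was analysed as WT-O2, and where a call in a comparison changed without it or with it counted as room air, this is said beside the result. The WT mice are numbered GSD398 to GSD408 and the KO mice GSD489 to GSD496, so genotype and range of mouse numbers cannot be told apart. All 10 marker genes of the hippocampal fields were detected in every library, with a summed level of 323 to 508 CPM in WT and 635 to 794 CPM in KO. Marker genes of the striatum, thalamus and upper cortical layers were detected as well, and their sums are given beside the results they move with.

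Cplx3 (ENSMUSG00000039714) encodes a complexin, a small protein that binds the SNARE complex and regulates the release of transmitter vesicles. It is also known from the ribbon synapses of the retina, and which cells of these samples made it was not tested. The 250 bases upstream of its start in RefSeq lie at chr9:57606282-57606531 on the minus strand of GRCm38.p6, a different build from the one the reads were aligned to. They are shown because Cplx3 is the gene around which the others were grouped, with the letters CACGTG in capitals.
Cplx3 upstream region: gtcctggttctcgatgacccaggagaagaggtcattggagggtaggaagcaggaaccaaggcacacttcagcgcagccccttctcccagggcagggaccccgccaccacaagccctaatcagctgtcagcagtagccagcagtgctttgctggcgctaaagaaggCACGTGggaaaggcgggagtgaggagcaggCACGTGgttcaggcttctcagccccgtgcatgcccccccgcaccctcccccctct
CACGTG, an E-box read the same on both strands, occurred 2 times in this window. Of 32851 RefSeq promoter windows of the same length, 6.02% held it at least once and 0.429% at least 2 times. This motif was searched after the sequence had been read. A TATA box (TATAAA), GC box (GGGCGG), cyclic AMP response element (TGACGTCA), AP-1 site (TGANTCA) and T-box site (GGTGTGA) were searched on both strands and had no match. They occurred in 12.4%, 32.7%, 1.55%, 6.75% and 3.33% of the windows, respectively.

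Cplx3 was highest in WT-RA, lower in WT-O2 and lowest in both KO groups. In WT-RA it was at 13.3 CPM in GSD398, 22.9 in GSD399, 34.1 in GSD400 and 30.1 in GSD401, a mean of 25.1 ± 9.11 (SD, n = 4). In WT-O2 it was at 6.41 CPM in GSD404, 11.2 in GSD405, 8.89 in GSD406 and 11.4 in GSD408, a mean of 9.48 ± 2.34 (SD, n = 4). In KO-RA it was at 1.30 CPM in GSD489, 3.78 in GSD490 and 3.34 in GSD496, a mean of 2.81 ± 1.32 (SD, n = 3). In KO-O2 it was at 3.22 CPM in GSD491, 2.49 in GSD494 and 1.99 in GSD495, a mean of 2.57 ± 0.62 (SD, n = 3). Every WT-O2 library lay below every WT-RA library, and all 6 KO libraries lay below the lowest WT library, while the KO groups overlapped. The lowest library, GSD489, rested on 35 counts of Cplx3 and the highest, GSD400, on 966. In a bulk sample, fewer cells of a type and less RNA per cell cannot be told apart.

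**Figure D1:**
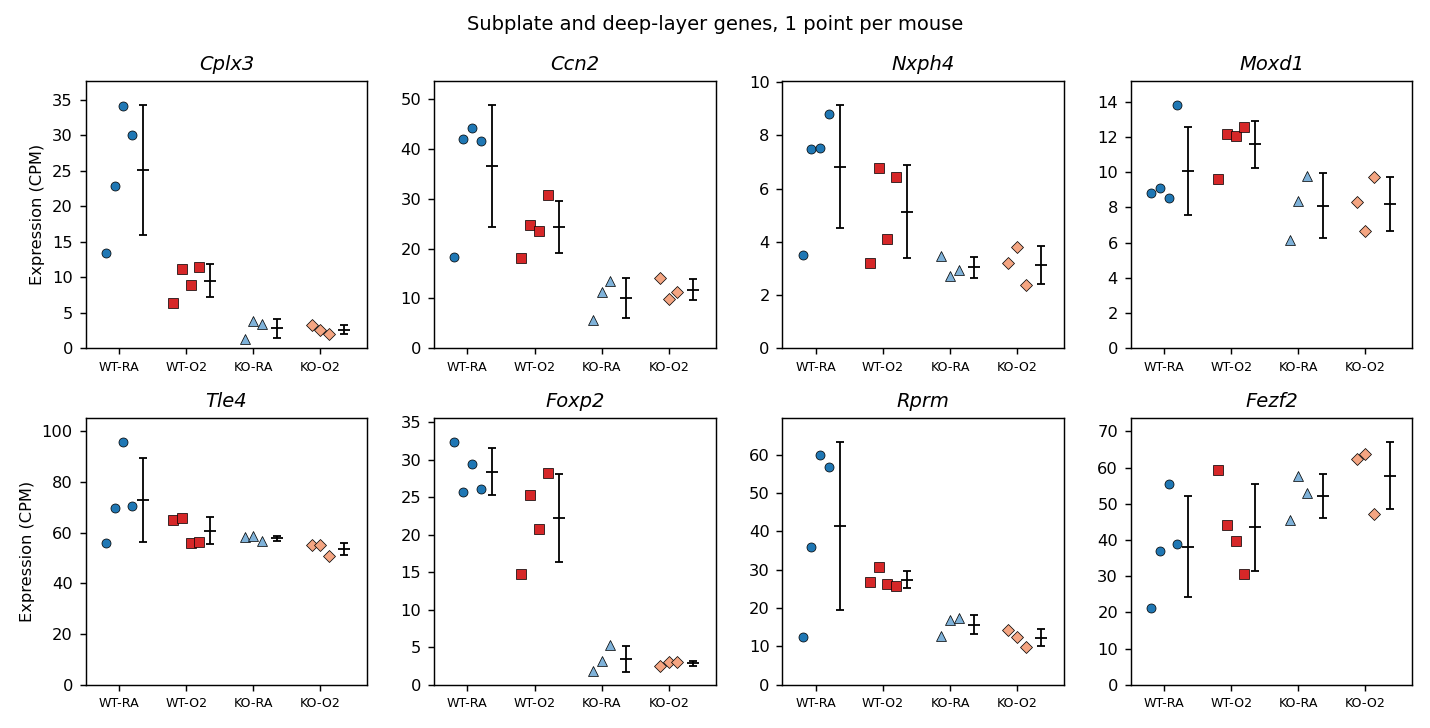
Expression (CPM, linear axes from 0) of the 8 genes in each group, 1 point per mouse, with the group mean and SD as a bar to the right of the points. Cplx3, Ccn2 and Foxp2 lay lower in all 6 KO libraries than in any WT library, whereas Fezf2 overlapped between all groups compared.

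Ccn2 (ENSMUSG00000019997), a secreted matricellular protein also called connective tissue growth factor and a marker of layer 6b, followed a similar order. It was at 18.4, 42.1, 44.3 and 41.7 CPM in the WT-RA mice and at 18.1, 24.8, 23.5 and 30.9 CPM in the WT-O2 mice, in the order of mice used for Cplx3. KO-RA mice had 5.65, 11.4 and 13.4 CPM and KO-O2 mice had 14.1, 9.87 and 11.3 CPM. The 2 WT groups overlapped through WT-RA mouse GSD398, whose 18.4 CPM stood apart from the other 3 mice of its group. All KO libraries lay below all WT libraries.

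Nxph4 (ENSMUSG00000040258), a secreted neurexophilin that binds neurexins, had 63 to 245 counts per library. It was at 3.49, 7.50, 7.53 and 8.79 CPM in WT-RA and at 3.19, 6.77, 4.11 and 6.42 CPM in WT-O2. In KO-RA it was at 3.45, 2.69 and 2.95 CPM and in KO-O2 at 3.19, 3.81 and 2.36 CPM. The KO-RA libraries lay below the WT-RA libraries by a narrow margin, 3.45 against 3.49 CPM, and the 2 hyperoxia groups overlapped.

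Moxd1 (ENSMUSG00000020000), a monooxygenase-like protein of the secretory pathway, showed no such order. WT-RA mice had 8.84, 9.12, 8.52 and 13.8 CPM and WT-O2 mice had 9.64, 12.2, 12.0 and 12.6 CPM. KO-RA mice had 6.13, 8.40 and 9.78 CPM, and KO-O2 mice had 8.30, 6.64 and 9.71 CPM. The highest KO library therefore exceeded 3 of the 4 WT-RA libraries, and the groups overlapped in each of the 4 comparisons.

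Among the layer 6 genes, Foxp2 (ENSMUSG00000029563), a forkhead transcription factor, had the widest gap between genotypes. It was at 32.4, 25.7, 29.4 and 26.0 CPM in WT-RA and at 14.8, 25.3, 20.7 and 28.3 CPM in WT-O2. KO-RA mice had 1.89, 3.15 and 5.37 CPM, and KO-O2 mice had 2.47, 3.08 and 3.0 CPM. The highest KO value was below the lowest WT value, and within WT the exposures overlapped. Unlike Cplx3 and Ccn2, Foxp2 was highest in WT-RA mouse GSD398.

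Rprm (ENSMUSG00000075334), reprimo, is known as a p53 target that slows the cell cycle and as a marker of layer 6 neurons. It was at 12.5, 36.1, 60.0 and 56.9 CPM in WT-RA, a wide spread with GSD398 at the bottom. It was at 26.9, 30.7, 26.3 and 25.8 CPM in WT-O2, at 12.8, 16.9 and 17.3 CPM in KO-RA and at 14.3, 12.5 and 9.86 CPM in KO-O2. Under hyperoxia every KO library was below every WT library, whereas in room air GSD398 lay below all 3 KO mice.

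Tle4 (ENSMUSG00000024642), a Groucho-type corepressor of corticothalamic neurons, ranged from 50.9 to 95.7 CPM over all libraries. WT-RA mice had 55.9, 69.8, 95.7 and 70.6 CPM and WT-O2 mice had 64.9, 65.6, 56.1 and 56.1 CPM. KO-RA mice had 58.1, 58.5 and 56.5 CPM and KO-O2 mice had 54.9, 55.1 and 50.9 CPM. The KO-O2 libraries, at 55.1 CPM or less, lay below all libraries of KO-RA and WT-O2, whose lowest were at 56.5 and 56.1 CPM. Fezf2 (ENSMUSG00000021743), a zinc-finger transcription factor that specifies subcortical projection neurons, was the one gene of the 8 with higher means in KO. It was at 21.3, 37.1, 55.4 and 39.0 CPM in WT-RA, at 59.4, 44.2, 39.7 and 30.6 CPM in WT-O2, at 45.6, 57.6 and 53.0 CPM in KO-RA and at 62.4, 63.9 and 47.1 CPM in KO-O2. The groups overlapped in all 4 comparisons.

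The first comparison was that of hyperoxia with room air in WT mice, the contrast for which Cplx3 was taken. Hyperoxia-exposed WT mice had 2.65-fold less Cplx3, at a log2 fold change of -1.40 ± 0.30 (SE). In the other comparisons a gene was called within 3 limits, which were a log2 fold change of at least 0.32 in size, an unadjusted p below 0.05 and a q below 0.1, with q the p after Benjamini-Hochberg adjustment over all genes tested. In this contrast 0.643% of all genes tested met them and 5.99% had libraries that did not overlap between the groups. Cplx3 was the one gene of the 8 that did either, and since it was taken for its lower level here, nothing is read from that. The other log2 fold changes were -0.59 for Ccn2, -0.59 for Rprm, -0.41 for Nxph4, -0.35 for Foxp2, -0.27 for Tle4, 0.20 for Moxd1 and 0.19 for Fezf2. Without mouse GSD408 the log2 fold change of Cplx3 was -1.50, and with it counted as room air it was -1.34. It was outside the limits in the latter case, and also when any 1 of the mice GSD399, GSD400, GSD404, GSD405 and GSD406 was left out, with log2 fold changes from -1.50 to -1.22. Without GSD398 it was -1.61 for Cplx3, -0.81 for Ccn2 and -0.89 for Rprm, all within the limits.

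In KO mice the same exposure gave no called gene among the 8. The log2 fold changes between KO-O2 and KO-RA were -0.13 ± 0.41 (SE) for Cplx3, 0.21 ± 0.33 for Ccn2, 0.04 ± 0.33 for Nxph4 and 0.02 ± 0.21 for Moxd1. They were -0.29 ± 0.31 for Foxp2, -0.36 ± 0.39 for Rprm, -0.10 ± 0.14 for Tle4 and 0.15 ± 0.27 for Fezf2. Of all genes tested, 0.012% were called in this comparison. By edgeR's quasi-likelihood test 0 of the 8 had an unadjusted p below 0.05, the lowest being 0.374, and DESeq2 also gave 0 calls and 0 such p-values. The libraries of Tle4 did not overlap between these groups, as was the case for 11.8% of all genes. The difference between the exposure effects, KO minus WT on the log2 scale, was 1.27 ± 0.50 (SE) for Cplx3 and 0.80 ± 0.43 for Ccn2. It contains the contrast that chose Cplx3 and is given without a test. For the other 6 genes it lay between -0.19 for Moxd1 and 0.46 for Nxph4.

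The genotypes were then compared within each exposure. These comparisons use the same WT libraries as the contrast above, so Cplx3 is again given without a test. The other 7 genes were picked with earlier results of these data known, which their q and the shares called do not allow for. In room air Cplx3 was 8.90-fold lower in KO, a log2 fold change of -3.15 ± 0.37 (SE). The log2 fold change was -3.03 ± 0.28 (SE) for Foxp2 (edgeR q = 4.32e-05), -1.85 ± 0.31 for Ccn2 (q = 0.00205), -1.40 ± 0.36 for Rprm (q = 0.0237) and -1.17 ± 0.31 for Nxph4 (q = 0.0263), and these 4 genes fell. Of the 7 genes other than Cplx3, 4 were called lower and 0 higher, where 6.7% of all genes tested were called lower and 3.75% higher. The log2 fold changes of the uncalled genes were -0.34 ± 0.13 (SE) for Tle4 (q = 0.117), -0.31 ± 0.19 for Moxd1 (q = 0.368) and 0.45 ± 0.25 for Fezf2 (q = 0.309). The libraries of Ccn2, Nxph4 and Foxp2, 3 of the 7, did not overlap, against 19.6% of all genes. The median log2 fold change of the 7 was -1.17, beside -0.01 over all genes tested. A call turned on 1 mouse in 3 genes. Rprm was not called without KO-RA mouse GSD489 (edgeR q = 0.110), Tle4 was called lower without WT-RA mouse GSD398 (q = 0.0185), and Fezf2 was called higher without WT-RA mouse GSD400 (q = 0.0715).

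Under hyperoxia Foxp2, Ccn2 and Rprm were called lower in KO. Cplx3, again without a test, was 3.68-fold lower in KO, a log2 fold change of -1.88 ± 0.36 (SE). Foxp2, Rprm and Ccn2 fell, with log2 fold changes of -2.97 ± 0.28 (SE, edgeR q = 8.99e-05), -1.16 ± 0.37 (q = 0.0819) and -1.05 ± 0.31 (q = 0.0605). Of the 7 genes other than Cplx3, 3 were thus called lower and 0 higher, where 4.35% of all genes were called lower and 2.51% higher. Nxph4 had a log2 fold change of -0.71 ± 0.31 (SE, q = 0.221), Moxd1 of -0.50 ± 0.19 (q = 0.166), Tle4 of -0.18 ± 0.13 (q = 0.518) and Fezf2 of 0.41 ± 0.25 (q = 0.422). Ccn2, Tle4, Foxp2 and Rprm, 4 of the 7, did not overlap between the groups, against 19% of all genes. The median log2 fold change of the 7 was -0.71, beside -0.01 over all genes tested. The calls of Ccn2 and Rprm were lost without mouse GSD408 (q = 0.158 and 0.136) or with it counted as room air (q = 0.144 and 0.142), and also without GSD405, GSD406, GSD494 or GSD495. The call of Rprm was lost without GSD399, GSD404, GSD490, GSD491 or GSD496 as well, while Nxph4 was called without GSD398 (edgeR q = 0.0978) and Moxd1 without GSD401 (q = 0.0932). The Cplx3 and Ccn2 estimates were nearer 0 than in room air, by the untested 1.27 and 0.80 given above.

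**Figure D2:**
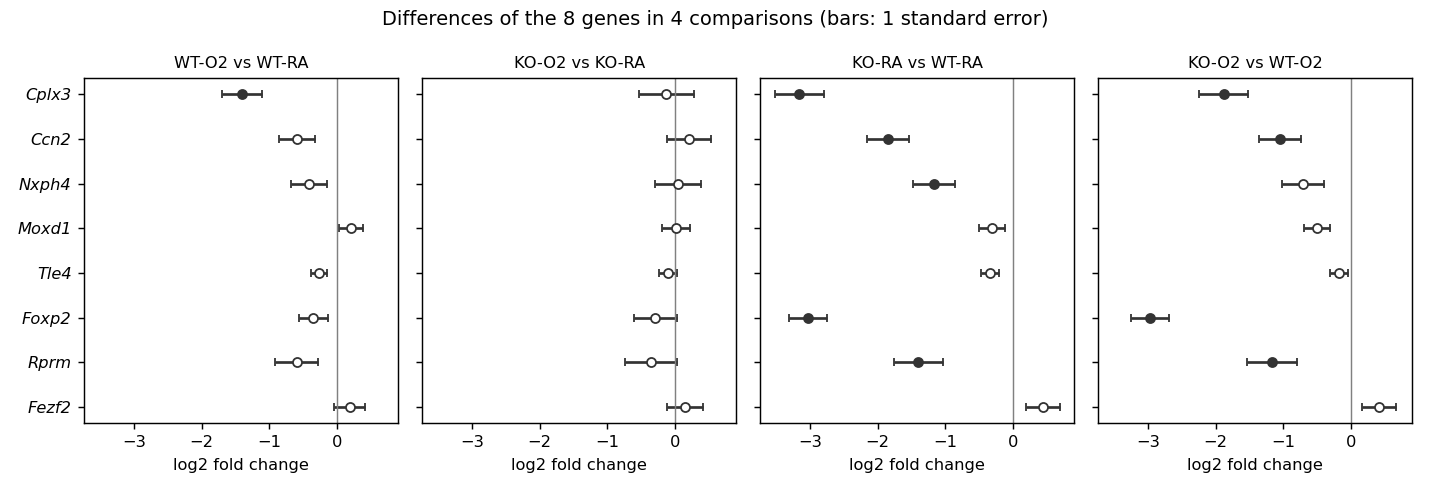
Log2 fold changes of the 8 genes (points) with 1 standard error (bars) in the 4 comparisons, filled where a gene was within the limits of a call (for Cplx3 a description). The points of KO-O2 vs KO-RA lay between -0.36 and 0.21, while Foxp2 was at -3.03 and -2.97 in the genotype comparisons and Fezf2 was to the right of 0 in all 4.

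Cplx3 and Ccn2 changed by unequal amounts. The ratio of Cplx3 to Ccn2 CPM was 0.725, 0.544, 0.770 and 0.721 in the WT-RA mice and 0.355, 0.452, 0.379 and 0.369 in the WT-O2 mice. It was 0.230, 0.332 and 0.249 in the KO-RA mice and 0.229, 0.253 and 0.176 in the KO-O2 mice. The 2 WT groups did not overlap, and every KO library was below every WT library. In GSD398, where both genes were low for the WT-RA group, the ratio was within the range of the other 3 mice. The ratio of Cplx3 to Nxph4 ran from 3.05 to 4.54 in WT-RA, from 1.66 to 2.16 in WT-O2, from 0.376 to 1.40 in KO-RA and from 0.654 to 1.01 in KO-O2. That of Cplx3 to Moxd1 ran from 1.51 to 4.01, from 0.665 to 0.923, from 0.212 to 0.450 and from 0.205 to 0.388 in the same order. That of Cplx3 to Rprm ran from 0.528 to 1.06, from 0.239 to 0.441, from 0.102 to 0.224 and from 0.199 to 0.225. Within WT-RA, GSD398 had the lowest ratio to Moxd1 (1.51) and the highest ratio to Rprm (1.06, with the next at 0.635). Since Cplx3 was taken for its lower level in WT-O2, these ratios are a description.

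**Figure D3:**
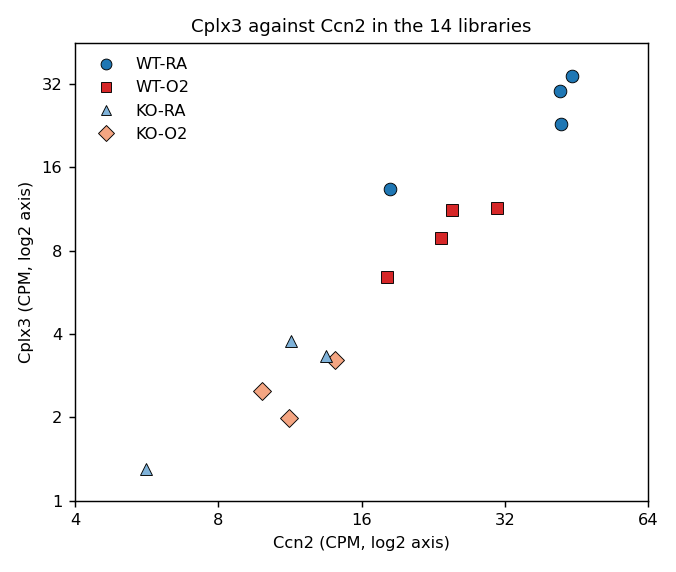
Cplx3 against Ccn2 in the 14 libraries (CPM, both axes log2), with 1 point per mouse and a symbol per group. The WT-RA mouse at 18.4 CPM of Ccn2 is GSD398, and at nearly the same Ccn2 level the WT-O2 mouse GSD404 had 6.41 CPM of Cplx3 against 13.3 CPM.

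Within groups, mice with more Cplx3 had more Ccn2 and more Rprm. After subtraction of group means from log2 CPM, Pearson's r between Cplx3 and Ccn2 over the 14 libraries was 0.917 (permutation p = 0.00273, adjusted over 7 relations 0.00955) and Spearman's rho was 0.785 (p = 0.00443, adjusted 0.0155). For Cplx3 and Rprm r was 0.745 (permutation p = 0.00226, adjusted 0.00955) and rho was 0.793 (p = 0.00258, adjusted 0.0155). Without GSD489 and GSD398, the libraries farthest from the median of Cplx3, r was 0.802 with Ccn2 and 0.637 with Rprm. The r of Cplx3 with the other 5 genes lay between 0.456 for Fezf2 and 0.549 for Nxph4 and none passed, with adjusted permutation p-values of 0.121 to 0.241. The r with Fezf2 was 0.073 without those libraries. By r with Cplx3 within groups over all 14 libraries, Ccn2 ranked 3 and Rprm 175 among 14466 other genes. The other 5 ranked from 1181 for Nxph4 to 1978 for Fezf2, so many genes outside those picked followed Cplx3 more closely than these did. Whether the relations are particular to genes of these layers was not tested. With 1 mouse left out, the relation with Nxph4 passed without GSD489 (r = 0.874, adjusted permutation p = 0.0196) and that with Fezf2 without GSD404 (r = 0.725, adjusted permutation p = 0.0243).

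The 21 relations among the other 7 genes were computed after the data had been examined, and 0 passed an adjusted permutation p of 0.05 on r. The highest was that of Tle4 and Fezf2, which both act in deep-layer projection neurons, with r = 0.882 (permutation p = 0.0091, adjusted 0.0955) and rho = 0.855 (p = 0.00198, adjusted 0.0416). Without GSD400 and GSD398 this r was 0.742. Rprm and Fezf2 had r = 0.796 (permutation p = 0.00371, adjusted 0.0779) and rho = 0.736 (adjusted 0.12), but r was 0.437 without the same libraries. Foxp2 had an r of -0.02 with Rprm, -0.26 with Fezf2 and -0.18 with Tle4, the other genes of layer 6 and of layers 5 and 6.

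Other genes of the same layers were examined from fixed lists, which were also chosen with earlier results of these data known. Of all genes tested, 6.7% were called lower and 3.75% higher in room air, and 4.35% and 2.51% under hyperoxia. Of 12 other subplate and layer 6b genes, 4 fell and 0 rose in KO-RA against WT-RA. They were Tmem163, a zinc transporter (log2 fold change -1.15, edgeR q = 0.000991), Clic5, a chloride channel protein linked to actin (-0.60, q = 0.0111), Lpar1, a lysophosphatidic acid receptor (-1.13, q = 0.0147), and Inpp4b, a phosphoinositide phosphatase (-0.73, q = 0.0343). The median of the list was -0.13. In which cells of the samples these 4 genes fell was not tested. Under hyperoxia Tmem163 alone was called (-0.87, q = 0.00835) and the median was -0.04. In WT mice, where the contrast is a description, Clic5 was lower after hyperoxia (-0.65). It was the only one of the 12 within the limits of a call, as were 0.643% of all genes tested. It was outside them with GSD408 counted as room air (-0.51). In KO mice none was called. The 12 genes summed to 644 to 683 CPM in WT-RA, 571 to 607 in WT-O2, 593 to 623 in KO-RA and 585 to 598 in KO-O2, so that the WT-RA sums lay above all others. A sum is weighted towards the genes of high CPM. The median log2 fold change of the 12 between WT-O2 and WT-RA was -0.09, beside -0.01 over all genes tested.

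Of 10 other layer 6 corticothalamic genes, 4 fell (3 without GSD408 or with it counted as room air) and 2 rose in KO-RA. Syt6, a synaptotagmin (log2 fold change -2.0, edgeR q = 0.000293), and Garnl3 (-0.98, q = 0.0199) fell, whereas Crym, which binds thyroid hormone (0.87, q = 0.000488), and Chrna5, a nicotinic receptor subunit (1.18, q = 0.011), rose. Under hyperoxia Syt6 fell (-1.31, q = 0.00625), while Crym (0.54, q = 0.0134) and Chrna5 (0.91, q = 0.0572) rose. The list's median was -0.55 in room air and -0.28 under hyperoxia. Of 9 other layer 5 genes, 0 fell and 3 rose in KO-RA. They were the transcription factor Bcl11b (0.41, edgeR q = 0.0121), the natriuretic peptide receptor Npr3 (0.63, q = 0.0207) and the POU factor Pou3f1 (0.70, q = 0.0778). In which cells of the hippocampal samples these genes, Crym and Chrna5 rose was not tested. In KO-O2 Bcl11b (0.39, q = 0.021) and Pou3f1 (1.04, q = 0.0178) were called higher. The list's median was 0.27 in room air and -0.27 under hyperoxia. Beside the counts of these 2 lists, 6.7% of all genes tested were called lower and 3.75% higher in room air. Under hyperoxia these shares were 4.35% and 2.51%. None of these 19 genes was within the limits of a call in either exposure comparison. Without GSD408, however, Parm1 (0.59) and Npr3 (0.53) of layer 5 were higher after hyperoxia in WT mice and within the limits, as a description. Parm1 was so with GSD408 counted as room air as well (0.57). Between genotypes under hyperoxia, Chrna5 was not called without GSD408 (0.73, edgeR q = 0.125) or with it counted as room air (0.72, q = 0.153). Parm1 was called lower in KO in both cases (-0.40, q = 0.0394, and -0.41, q = 0.0306).

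Of the other complexins, Cplx2, which is expressed widely in the forebrain, was 0.35 higher on the log2 scale in KO-RA (edgeR q = 0.0178) and 0.37 higher in KO-O2 (q = 0.0204). Cplx1 was not called in any comparison, and Cplx4 did not pass the filter on low counts. Neither of these complexins was called lower in KO.

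**Figure D4:**
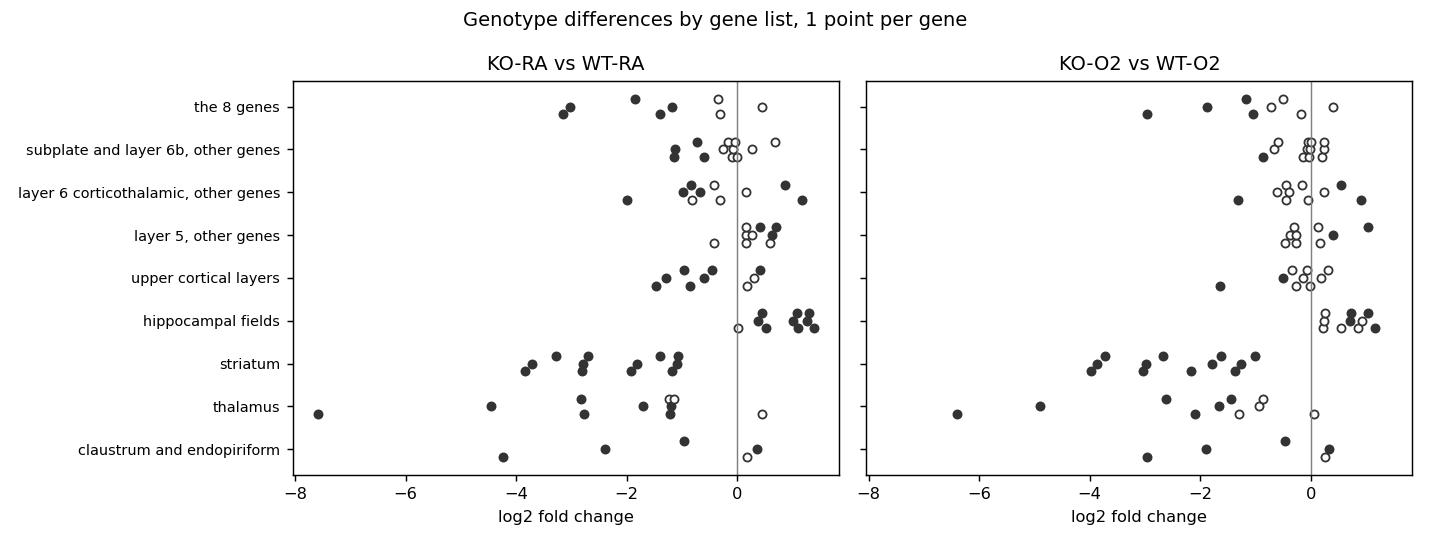
Log2 fold changes of the genes of each list between genotypes, in room air (left) and under hyperoxia (right), with 1 point per gene, filled where the gene was called, and points offset vertically for legibility. All 12 striatal genes were called lower in both panels, and the hippocampal genes lay to the right of 0.

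Markers of other regions moved with genotype as well. Over all genes tested, 6.7% were called lower and 3.75% higher in room air, and 4.35% and 2.51% under hyperoxia. All 12 striatal genes fell in both genotype comparisons, among them the dopamine receptor Drd1 (-2.70 in room air, edgeR q = 7.89e-05), the adenosine receptor Adora2a (-2.79, q = 8.49e-05), the opioid precursor Penk (-2.81, q = 0.000162) and the tachykinin precursor Tac1 (-1.18, q = 0.000484). They summed to 614 to 898 CPM in WT-RA, 427 to 979 in WT-O2, 163 to 273 in KO-RA and 176 to 188 in KO-O2. Of 10 thalamic genes 7 fell in room air (8 with GSD408 counted as room air). Under hyperoxia 6 fell (4 without GSD408 or with it counted as room air). The receptor-modifying protein Ramp3 (-2.82 and -2.09) and the transcription factors Tcf7l2 (-2.78 and -2.62), Shox2 and Gbx2 were among them in both comparisons. Shox2 was at 0.177 to 27 CPM in WT and at 0.035 to 0.179 CPM in KO, and Gbx2 at 0.283 to 5.38 CPM in WT and at no more than 0.210 CPM in KO. Their sums were 116 to 705 CPM in WT-RA, 204 to 518 in WT-O2, 109 to 131 in KO-RA and 114 to 129 in KO-O2. The striatal factor Isl1 and the thalamic factor Gbx2 were each at 0 in 1 library. Of 10 genes of the hippocampal fields 9 rose in room air (8 with GSD408 counted as room air) and 4 under hyperoxia, such as Spink8 (1.39 and 1.04) and Fibcd1 (1.01 and 0.73).

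Of 9 upper-layer genes 6 fell (4 with GSD408 counted as room air) and 1 rose in room air. Under hyperoxia 2 fell (1 without GSD408 or with it counted as room air). The shares of all genes tested were 6.7% lower and 3.75% higher in room air, and 4.35% and 2.51% under hyperoxia. Cux2 (-0.96, edgeR q = 0.000788), Rorb (-0.86, q = 0.00144), Cux1 (-0.60, q = 0.0019) and Otof (-1.28, q = 0.00356) were among those that fell in room air. As a description, Rorb was also lower after hyperoxia in WT mice (-0.53). It was the only gene of this list within the limits there, as were 0.643% of all genes tested. It was outside them with GSD408 counted as room air (-0.57), and without GSD408 Cux2 was within them beside it (-0.60). The upper-layer sums were 300.0 to 400.1 CPM in WT-RA, 281 to 313 in WT-O2, 240 to 251 in KO-RA and 260 to 266 in KO-O2. Of 5 claustral genes 3 fell and 1 rose in both genotype comparisons: Smim32 (-4.24 and -2.97), the kappa opioid receptor Oprk1 (-2.40 and -1.90) and Gnb4 (-0.96 and -0.47) fell and Lxn (0.37 and 0.33) rose. The call of Gnb4 under hyperoxia was lost without GSD408 (edgeR q = 0.157), and with GSD408 counted as room air that of Lxn was lost too (q = 0.104). Without GSD408 Smim32 was lower after hyperoxia in WT mice and within the limits, as a description (-1.33). Their sums were 154 to 261 CPM in WT-RA, 177 to 198 in WT-O2, 170 to 188 in KO-RA and 174 to 188 in KO-O2. The part of tissue from these regions in the lower Cplx3, Ccn2, Nxph4, Foxp2 and Rprm of KO mice was not tested.

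**Figure D5:**
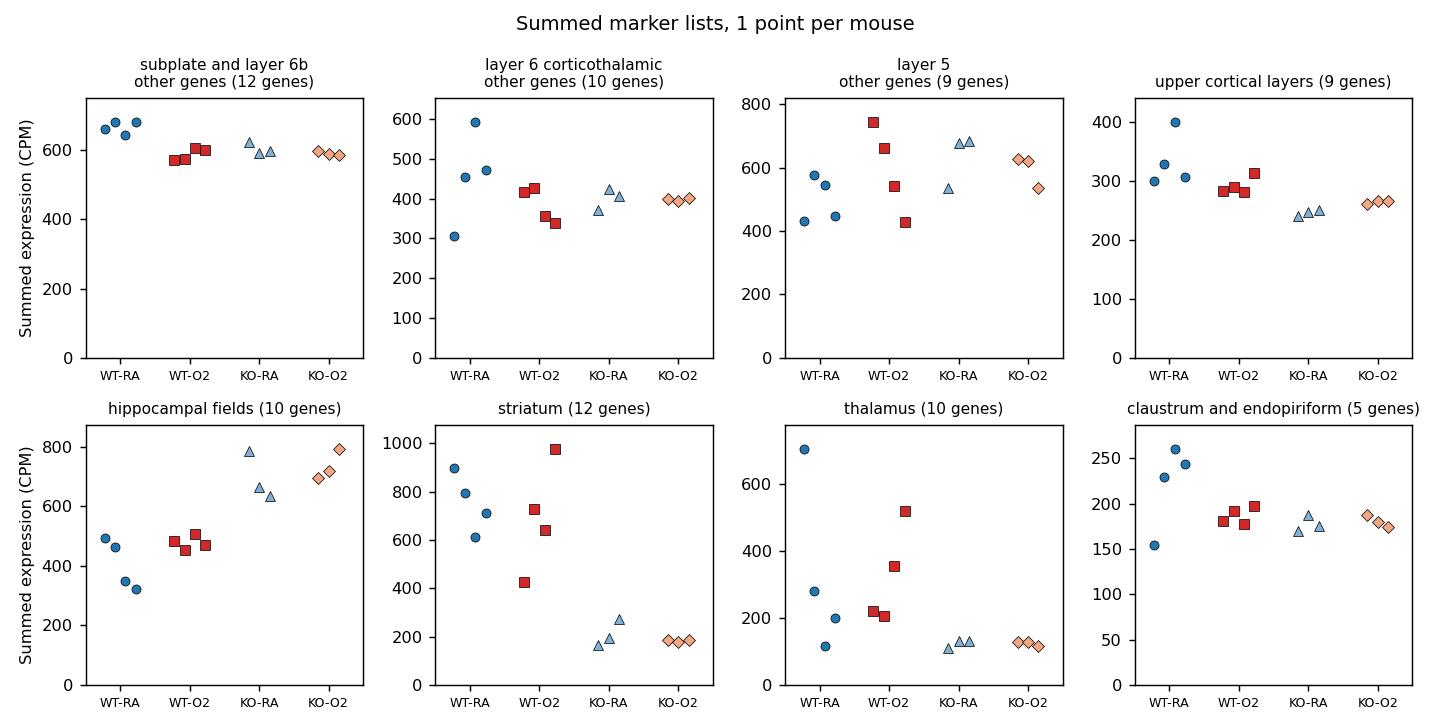
Summed expression of each marker list (CPM, linear axes from 0), with 1 point per mouse. The striatal sums of the 6 KO libraries lay between 163 and 273 CPM, below all 8 WT libraries, and the hippocampal sums of the KO libraries lay above all WT libraries.

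The libraries also differed within WT-RA. GSD398, with the lowest Cplx3, Ccn2, Nxph4, Rprm, Tle4 and Fezf2 of its group, had the highest thalamic sum at 705 CPM and the highest striatal sum at 898 CPM, and its sum of the 10 other layer 6 genes was the lowest at 305 CPM. GSD400, with the highest Cplx3, Ccn2, Rprm, Tle4 and Fezf2 of the group, had the lowest thalamic sum at 116 CPM and the highest layer 6 sum at 594 CPM. Within groups, the relation of each of the 8 genes to the hippocampal, upper-layer, striatal and thalamic sums was computed after the data had been examined, and 1 of the 32 relations passed. Rprm was lower where the hippocampal sum was higher, with r = -0.845 (permutation p = 0.00136, adjusted 0.0435) and rho = -0.899 (p = 0.00069, adjusted 0.0221), and r was -0.780 without GSD398 and GSD401, the libraries farthest from the median. For Cplx3 and the hippocampal sum r was -0.790 (permutation p = 0.00326, adjusted 0.0522) and rho was -0.824 (p = 0.0028, adjusted 0.0448). Foxp2 and the striatal sum had r = 0.815 (permutation p = 0.0069, adjusted 0.0736) and rho = 0.714 (adjusted 0.163). Tle4 and the thalamic sum had r = -0.913 (permutation p = 0.0233, adjusted 0.107) and rho = -0.820 (adjusted 0.163). Both measures of such a pair come from the same library and are shares of 1 total.

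The genes whose pattern was most like that of Cplx3 were ranked among 14466 other genes with a mean of at least 1 CPM. Over the 14 libraries, where r mostly reflects the differences between groups, the first 5 were the sialidase Neu2 (r = 0.984), the phosphohydrolase Nudt4 (0.970), the synaptic scaffold Dlg1 (0.968), the Rab27 effector Sytl2 (0.967) and the exchange factor Rasgef1c (0.964). Ccn2 ranked 9 with r = 0.960, and Foxp2 ranked 74. After subtraction of group means, Neu2 (0.945), Ccn2 (0.917), Rasgef1c (0.916) and the scaffold protein Whrn (0.910) were among the 5 genes of highest r. Neu2 was at 2.59 ± 0.741 CPM (SD, n = 4) in WT-RA, 1.29 ± 0.212 (n = 4) in WT-O2, 0.523 ± 0.165 (n = 3) in KO-RA and 0.671 ± 0.0672 (n = 3) in KO-O2, the same order of WT groups as Cplx3. Rasgef1c was at 11.6 ± 3.69 CPM (SD, n = 4) in WT-RA, 9.05 ± 1.75 (n = 4) in WT-O2, 3.43 ± 0.904 (n = 3) in KO-RA and 3.47 ± 0.274 (n = 3) in KO-O2, with overlapping WT groups. These correlations are a description over libraries that share their group differences and carry no test. Without GSD408, Ccn2 ranked 9 over the libraries and 5 within groups.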

How the data were processed

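Hippocampal RNA of 14 mice was analysed, 1 library each. The deposited values are estimated counts, made by the authors with Kallisto on GRCm39 and summed to genes with tximport, according to their methods. Versions are not given in the sources used here. Between 41.0% and 43.2% of a library's values are not whole numbers, and 35825 genes of 36118 were given a symbol. Mice were grouped by title.

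Counts were rounded, filtered (filterByExpr), scaled by TMM and modelled in edgeR 4.0.16 (R 4.3.3) over all libraries together, 1 coefficient per group, and tested by the quasi-likelihood F-test. The study's methods give the limits of a call (absolute log2 fold change 0.32, p 0.05, q 0.1). Standard errors are the log2 fold change divided by the square root of F. Log2 CPM has a prior count of 2. Relations within groups used 100000 two-sided permutations of libraries within groups. The fit was also run on counts simulated with its own estimates of the spread. These held no differences in tissue share, so that run is a check of the code only. Values measure the spread between mice; counting error is part of it at low counts. Alternatives were DESeq2 1.42.0, its size factors, library size, no filter, a prior count of 0.5, the compared groups only, GSD408 as room air and each mouse left out. The 8 genes and all lists were chosen with earlier results of these data known. Of each list, up to 4 called genes with the smallest p are named, as are the 5 genes most like Cplx3 by each measure, apart from a gene not reported here. Promoter sequences are from RefSeq (GRCm38.p6), which held 5 of the 8 genes. Coordinates on GRCm39 are not used here.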

Additional observations from a re-analysis of the deposited data

Results flagged for a closer look

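In 2 of the 16 sets of 4 WT libraries that were examined (8 genes in WT-RA and in WT-O2), 1 library lay farther from the others than Dixon's 95% limit for 4 samples, which chance exceeds in about 1 set in 20. Ccn2 was at 18.4 CPM in WT-RA mouse GSD398 and at 41.7 to 44.3 CPM in the other 3 mice of that group. Without this mouse the log2 fold change of Ccn2 between WT-O2 and WT-RA was -0.81 in place of -0.59. Moxd1 was at 13.8 CPM in WT-RA mouse GSD401 and at 8.52 to 9.12 CPM in the others. Without it the log2 fold change of Moxd1 between WT-O2 and WT-RA was 0.39 in place of 0.20.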

How the results depend on the processing

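Counts of calls here include Cplx3, whose own values are a description. Between WT-O2 and WT-RA 1 of the 8 genes, Cplx3, was within the limits. That number was 0 with the compared groups fitted alone and 0 with GSD408 as room air, and ran from 0 to 3 with 1 mouse left out. Between KO-O2 and WT-O2 the 4 calls became 2 with GSD408 as room air, Cplx3 and Foxp2, and ran from 2 to 5 with 1 mouse left out, 2 without any 1 of GSD405, GSD406, GSD408, GSD494 and GSD495. With 1 mouse left out, 6 small log2 fold changes crossed 0. Between KO-O2 and KO-RA they ran from -0.0795 to 0.462 for Ccn2, from -0.47 to 0.14 for Cplx3, from -0.58 to 0.17 for Foxp2, from -0.15 to 0.18 for Moxd1 and from -0.13 to 0.21 for Nxph4, and between WT-O2 and WT-RA from -0.00755 to 0.423 for Fezf2. Rprm was not called between KO-RA and WT-RA with these groups fitted alone (q = 0.105), whereas Tle4 was with DESeq2 (q = 0.0908), and Moxd1 was between KO-O2 and WT-O2 with these groups fitted alone (q = 0.0653). The number of the 7 relations with Cplx3 that passed, 2, ran from 2 to 3 with 1 mouse left out. The causes of these changes were not tested. Of the 192 log2 fold changes under the other alternatives, 185 kept direction and side of the limits, as did the 32 values on relations with Cplx3. No paired analysis was possible because the labels used here give no litter and link no mouse of a group to a mouse of another. With GSD408 left out, a choice made after seeing the data, 2 of the 7 relations with Cplx3, 0 of the 21 others and 1 of the 32 with marker sums passed. Depth limits Cplx3, Foxp2 and Nxph4 in KO libraries most, at 35, 51 and 63 counts in the lowest.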
